A study of Mus musculus with 44 samples.

Results

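H3K4me1 around transcription start sites was compared between HPC7 cells with mutant Snai1 and HPC7 cells with wild-type Snai1. HPC7 is a mouse blood progenitor line kept in stem cell factor. The 6 libraries compared were the 3 H3K4me1 libraries with mutant Snai1 and the 3 with wild-type Snai1, of 44 samples in the series, and all gene windows of the deposited count table were used. Mutant cells carried a MSCV-IRES-GFP retrovirus with Snai1 cDNA in which phenylalanine 5 is replaced by alanine (F5A), a change that impairs binding to Lsd1, per the labels. Wild-type cells carried the same vector with unchanged Snai1 cDNA, and 3 further H3K4me1 libraries came from cells with the vector without an insert. In all constructs the cells kept their own Snai1 gene, expression was driven by the retrovirus, and GFP-positive cells were sorted about a week after transduction and then expanded. The labels number the replicates without saying whether they were separate transductions or cultures, so p-values measure the spread between these libraries, which may be technical. The question that the comparison addresses is whether the Lsd1-binding part of Snai1 changes this mark.

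Snai1 is a zinc finger repressor that binds E-box sequences, and its N-terminal SNAG domain recruits Lsd1 (gene Kdm1a). Lsd1 removes methyl groups from mono- and dimethylated lysine 4 of histone H3, so H3K4me1 and H3K4me2 are both its substrates. H3K4me1 marks enhancers and the flanks of active promoters, and Gfi1 and Gfi1b bring Lsd1 to target genes of blood cells through a SNAG domain of the same kind.

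The promoters below are shown because they lie inside the windows with the largest differences that have an entry in the RefSeq promoter sequences of GRCm38.p6. Each sequence runs from 250 bases before to 50 bases after an annotated start site, and capitals mark the E-box CAGGTG, which reads CACCTG on the other strand. The first 3 windows were higher and the last 3 lower in mutant cells.
Dlk1, chr12:109452573-109452872, plus strand: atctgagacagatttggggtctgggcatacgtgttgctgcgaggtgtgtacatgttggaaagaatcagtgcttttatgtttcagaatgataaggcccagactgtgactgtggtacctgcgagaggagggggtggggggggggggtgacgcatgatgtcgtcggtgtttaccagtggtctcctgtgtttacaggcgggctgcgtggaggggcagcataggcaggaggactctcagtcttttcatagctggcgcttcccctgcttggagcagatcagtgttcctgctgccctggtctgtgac
Vstm2a, chr11:16257492-16257791, plus strand: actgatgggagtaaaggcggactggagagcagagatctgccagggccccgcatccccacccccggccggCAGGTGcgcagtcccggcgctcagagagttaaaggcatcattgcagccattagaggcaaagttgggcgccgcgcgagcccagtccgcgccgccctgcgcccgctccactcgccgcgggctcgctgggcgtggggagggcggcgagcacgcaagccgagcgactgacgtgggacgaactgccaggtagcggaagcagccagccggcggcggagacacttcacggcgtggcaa
Lmo1, chr7:109175158-109175457, minus strand: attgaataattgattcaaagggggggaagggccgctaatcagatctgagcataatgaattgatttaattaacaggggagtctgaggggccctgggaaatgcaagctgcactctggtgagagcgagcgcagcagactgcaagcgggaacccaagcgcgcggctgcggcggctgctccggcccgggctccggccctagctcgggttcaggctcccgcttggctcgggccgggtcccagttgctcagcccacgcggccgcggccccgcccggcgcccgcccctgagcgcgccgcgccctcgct
Gzmb, chr14:56262285-56262584, minus strand: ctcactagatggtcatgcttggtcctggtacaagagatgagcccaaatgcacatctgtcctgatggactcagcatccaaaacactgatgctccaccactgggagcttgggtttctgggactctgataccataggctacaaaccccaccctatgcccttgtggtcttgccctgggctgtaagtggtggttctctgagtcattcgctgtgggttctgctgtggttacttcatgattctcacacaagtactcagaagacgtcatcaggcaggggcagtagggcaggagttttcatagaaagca
Cnga1, chr5:72642703-72643002, minus strand: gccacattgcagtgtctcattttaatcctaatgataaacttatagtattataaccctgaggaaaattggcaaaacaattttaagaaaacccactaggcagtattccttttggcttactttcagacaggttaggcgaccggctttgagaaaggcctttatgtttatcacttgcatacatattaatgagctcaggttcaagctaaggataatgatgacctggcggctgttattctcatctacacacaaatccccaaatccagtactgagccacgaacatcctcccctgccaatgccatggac
Ackr3, chr1:90203730-90204029, plus strand: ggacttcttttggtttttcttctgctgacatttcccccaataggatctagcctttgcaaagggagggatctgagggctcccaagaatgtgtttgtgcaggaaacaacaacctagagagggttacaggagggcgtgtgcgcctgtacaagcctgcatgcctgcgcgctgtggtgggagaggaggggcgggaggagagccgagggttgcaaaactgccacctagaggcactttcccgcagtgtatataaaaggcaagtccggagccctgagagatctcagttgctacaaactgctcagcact
Among these 6 promoters, that of Vstm2a held the E-box, once, with its first base 181 bases before the start site. Of all 32851 promoters of the same length in the RefSeq set, 20.2% held this motif on either strand.

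Replicate 1 stood apart from replicates 2 and 3 in all constructs, and the 2 sets are called batches here from the counts, since the labels name none. The variance between replicate 1 and the other replicates of its construct was 9.49 to 17.7 times the counting variance, against 4.74, 8.77 and 6.44 times between mutant and wild type in replicates 1, 2 and 3. Replicates 2 and 3 differed from each other by 1.28 times the counting variance in mutant, 1.18 times in wild-type and 0.98 times in empty-vector cells, and the empty-vector pair was counted as 1 sample. The libraries held 8813537, 5381773 and 4042976 reads in windows for mutant replicates 1 to 3, and 7837122, 5051776 and 5404568 for wild type. Of 9 progenitor genes used to check the cell type, 8 (Kit, Cd34, Gata2, Runx1, Tal1, Lyl1, Lmo2 and Fli1) had mean H3K4me1 25.2 to 57.5 times the median of olfactory and vomeronasal receptor windows in mutant cells, and 26.6 to 65.9 times in wild-type cells. Erg was at 3.88 times in mutant cells and 2.64 times in wild-type cells. The median housekeeping window was at 49.5, 15.7 and 20.6 times the median receptor window in mutant replicates 1, 2 and 3. The ratio thus shows that windows are marked and does not by itself tell the cell type. None of the 9 passed the test between the constructs.

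Whole chromosomes differed between the mutant and wild-type libraries of replicates 2 and 3. The median log2 ratio of mutant over wild type over the 881 windows of chromosome 8 was 0.15 in replicate 1 and 0.40 in replicates 2 and 3, before any correction. Chromosome 17 was at 0.19 in replicate 1 and -0.34 in replicates 2 and 3. Chromosomes 11, 13 and X also passed a median of 0.2 in size in replicates 2 and 3, with -0.20, -0.21 and -0.23, against 0.18, 0.09 and 0.12 in replicate 1. The median over the 20 chromosomes was itself 0.15 in replicate 1 and -0.15 in replicates 2 and 3. Measured from that median, chromosome 8 departed by 0.54 in replicates 2 and 3 and chromosome 17 by -0.19, whereas chromosomes 11, 13 and X departed by -0.06, -0.06 and -0.08. Chromosomes 2 and 19, singled out after their values were seen, departed by 0.28 and 0.29 in replicates 2 and 3 and by -0.01 and 0.02 in replicate 1. In replicate 1 the chromosome farthest from the median was 18, at -0.17.

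**Figure D1:**
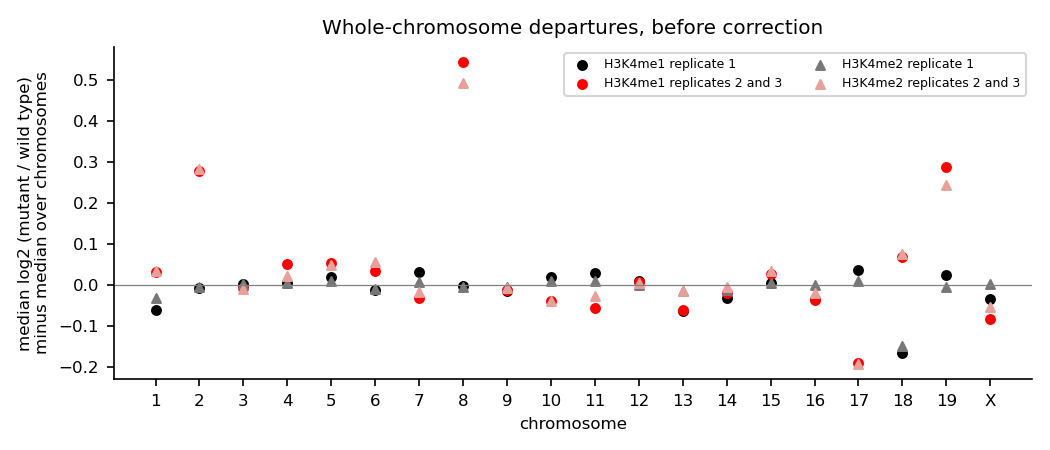
Median log2 ratio of mutant over wild type of each chromosome (x axis), minus the median over chromosomes (y axis), before correction. Circles are H3K4me1 and triangles H3K4me2, with replicate 1 in black or grey and replicates 2 and 3 in red or pink. Chromosome 8 lay at 0.54 in H3K4me1 and 0.49 in H3K4me2 of replicates 2 and 3.

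The same chromosomes departed in H3K4me2, a separate immunoprecipitation of the same constructs. There chromosomes 8, 2, 19 and 17 departed by 0.49, 0.28, 0.25 and -0.19 in replicates 2 and 3, and chromosome 18 by -0.15 in replicate 1. Each library was therefore given an offset per chromosome, and the values below carry it unless they are said to be uncorrected. In the IgG libraries of wild-type cells, which use no antibody against the mark, the median of chromosome 8 was 0.46 higher on the log2 scale in replicate 1 than in replicate 2, and in wild-type H3K4me1 it was 0.44 higher. On chromosome 17 the IgG libraries differed by 0.33 and wild-type H3K4me1 by -0.07. These IgG and H3K4me1 values are not measured from the median over chromosomes, so their sizes and signs are not departures. Whether IgG and the mark moved together was not tested.

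The correction per chromosome does not reach a step inside chromosome X, found after the values were seen. In replicates 2 and 3, the windows from Timm8a1 (start site 134541670, GRCm38 chromosome X) to the end of the chromosome lay about a log2 unit lower in mutant than in wild-type cells. The median uncorrected log2 ratio of these 109 windows was 0.07 in replicate 1, -1.05 in replicate 2 and -0.94 in replicate 3. The 311 windows before the step had medians of 0.14, -0.12 and -0.12. In replicates 2 and 3, 92.7% of the 109 distal windows lay below -0.5, against 7.07% of the 311 proximal ones. Across the step, Timm8a1, a mitochondrial import protein, was at -0.97 and -0.89 in replicates 2 and 3, while its neighbour Cenpi, a centromere protein (start site 134308084), was at 0.16 and 0.08. In H3K4me2 the distal medians were 0.02, -0.98 and -0.97 in replicates 1, 2 and 3.

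The distal level differed by library in both directions. Relative to the mean of the 9 H3K4me1 libraries it lay at -0.42 and -0.44 on the log2 scale in mutant replicates 2 and 3, and at 0.57 and 0.53 in wild-type replicates 2 and 3. The empty-vector replicates 2 and 3, at -0.45 and -0.48, were close to the mutant ones. In replicate 1 the mutant, wild-type and empty-vector libraries lay at 0.29, 0.20 and 0.22. Within replicates 2 and 3 the wild-type libraries were therefore the high ones. In wild-type IgG the distal median was 0.18 higher in replicate 1 than in replicate 2, opposite in direction to wild-type H3K4me1.

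**Figure D2:**
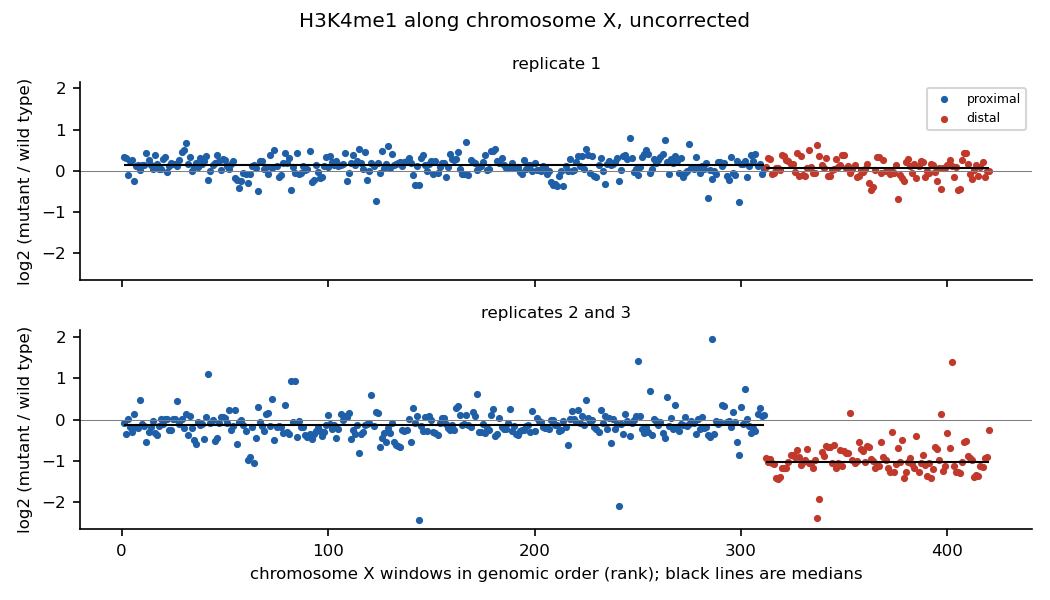
Uncorrected log2 ratio of mutant over wild type (y axis) for 420 chromosome X windows in their order along the chromosome (x axis, rank), in replicate 1 above and in replicates 2 and 3 below. Blue points are the 311 windows before the step, red points the 109 distal windows and black lines the medians; the distal median is 0.07 in replicate 1 and -0.996 in replicates 2 and 3.

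The difference between mutant and wild type also followed the level of the mark, in opposite directions in the 2 batches. In the lowest decile of empty-vector H3K4me1 the median log2 ratio was -0.43 in replicate 1, 0.49 in replicate 2 and 0.14 in replicate 3. In the highest decile it was 0.24, -0.33 and -0.19. Weakly marked windows were thus lower in the mutant of replicate 1 and higher in the mutant of replicates 2 and 3, and strongly marked windows the reverse. The direction of this trend in H3K4me2 was that of H3K4me1 in each batch.

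**Figure D3:**
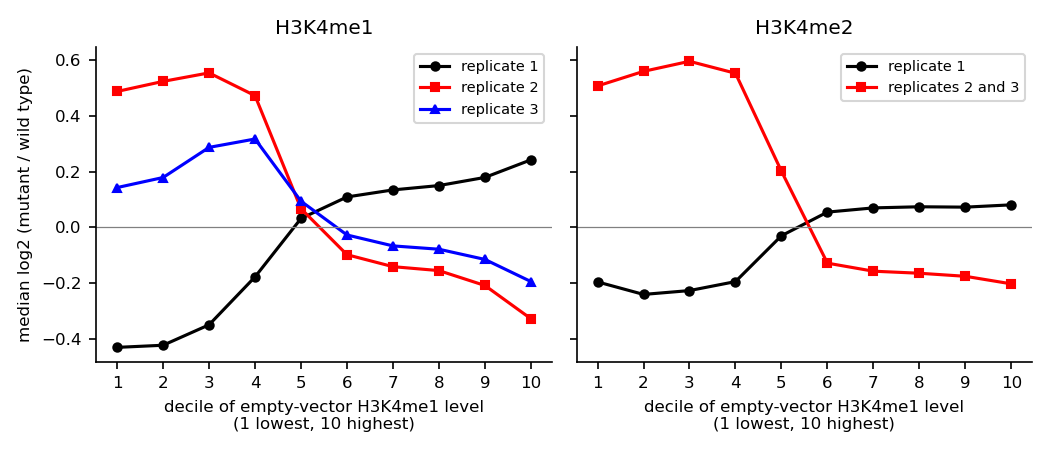
Median chromosome-corrected log2 ratio of mutant over wild type (y axis) by decile of the empty-vector H3K4me1 level (x axis), for H3K4me1 on the left and H3K4me2 on the right. Replicate 1 (black) runs upward, from -0.43 to 0.24 in H3K4me1, and replicates 2 (red) and 3 (blue) downward; in the H3K4me2 panel replicates 2 and 3 are averaged in red.

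Separation of marked from silent windows differed between the libraries in the same pattern. The ratio of the median housekeeping window to the median olfactory and vomeronasal receptor window was 49.5, 15.7 and 20.6 in mutant replicates 1, 2 and 3, and 26.6, 31.4 and 22.4 in wild type. The median receptor window, at genes silent in blood cells, was at 1.48, 4.09 and 3.46 CPM (read counts scaled to a common library size) in mutant and 2.55, 2.18 and 2.96 CPM in wild type. Mutant replicate 1 thus had the lowest background of the 6 libraries, and mutant replicates 2 and 3 the highest. The part of this in the trend with level was not tested.

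Across 17738 windows with at least 50 reads on average, the log2 ratios of replicate 1 and of replicates 2 and 3 went against each other. Their Pearson correlation across windows was -0.24 after the chromosome offset, and 34.9% of windows had the same sign. After a correction of each library for level as well as chromosome it was -0.02, with 48.8% of the same sign. Replicates 2 and 3 correlated with each other at 0.84. Windows are not independent replicates, and each library enters all of them, so these correlations are a description.

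Between mutant and wild type, 0 of 25728 windows (0%) passed when all replicates were pooled without a batch term, in edgeR's quasi-likelihood test at an adjusted p of 0.05. At an unadjusted p under 0.05 there were 1216 windows (4.73%), and DESeq2 called 21 higher and 15 lower in mutant cells. When replicate number was added as a block, with all 9 libraries kept apart, 33 windows passed as higher and 15 as lower. This block fit counts libraries of the same construct and batch as independent samples, although they differed by about the counting error. Its p-values may therefore be too small, and its calls do not make up for the lack of calls in the pooled test. Without mutant replicate 1 the pooled test called 103 higher and 110 lower, and without wild-type replicate 1 it called 18 higher and 8 lower. In both of these fits construct and batch are partly confounded.

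With replicates 2 and 3 of each construct summed and the batch as a term, 39 windows were higher (0.151%) and 42 lower (0.162%) in mutant cells, 81 of 25893 (0.313%). At an unadjusted p under 0.05 there were 958 windows (3.7%). This fit has 2 residual degrees of freedom, and its p-values rest on a spread that edgeR took as shared across all windows of a level. The 81 calls were lost, with 0 left, when a local offset replaced the chromosome offset, when the level trend was removed as well, when windows needed a mean of at least 50 reads in each construct, and when wild-type replicate 2 was left out. Without mutant replicate 2 the count was 4 higher and 4 lower, without mutant replicate 3 it was 25 and 30, and without wild-type replicate 3 it was 18 and 32. In each fit in which these windows could be tested, all of them had the same sign as reported. These fits use the libraries from which the 81 were chosen, so the kept signs follow largely from the choice. Within replicates 2 and 3 alone, 9070 of 25750 windows (35.2%) passed, 3840 higher (14.9%) and 5230 lower (20.3%) in mutant cells. The spread in that last test is hardly above counting error, so it compares these libraries and not the constructs. Of the 9069 of these windows that were also in the pooled or the batch fit, 27.0% had the same sign in replicate 1, and 48.4% after the correction for level.

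Among the 81 windows, 73 had the same sign in replicate 1 and in replicates 2 and 3. The 3 mutant and 3 wild-type libraries did not overlap in 57 of the 81, 28 higher and 29 lower, where all windows tested gave 7.89% (5.19% higher and 2.71% lower). The 81 were chosen by a test between the same libraries, so this share follows from the choice and supports nothing. Of the 81, 16 were predicted genes or had no symbol. Non-overlapping windows at named genes with a level over 5.83 CPM were ranked by fold change, and the 10 highest and 10 lowest are described below.

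The 10 windows higher in mutant cells included those of a Notch family ligand, of transcription cofactors and of immune surface proteins. Dlk1 encodes a transmembrane protein of the Notch ligand family and is imprinted (GRCm38 chromosome 12, 109452485 to 109463336). Its window had 26.3, 31.0 and 43.3 CPM in mutant replicates 1, 2 and 3, against 14.7, 4.79 and 4.24 CPM in wild type. The groups did not overlap, and the empty vector lay between them at 23.3, 19.8 and 17.2 CPM. The log2 fold change was 1.85 (SE 0.292, edgeR adjusted p = 1.45e-06), with 0.83 in replicate 1 and 2.89 in replicates 2 and 3. Its size thus differed between the batches while its direction did not.

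Lmo1, a LIM-domain transcription cofactor known as an oncogene of human T-cell leukaemia (chromosome 7, 109138565 to 109175207), had 26.9, 19 and 23.7 CPM in mutant and 15.6, 5.16 and 6.31 CPM in wild-type cells (log2 fold change 1.31, SE 0.331, adjusted p = 0.0316). Vstm2a, which encodes an immunoglobulin-domain protein (chromosome 11, 16257742 to 16284551), had 20.3, 12.8 and 12.0 CPM in mutant and 7.94, 2.57 and 5.43 CPM in wild-type cells (1.47, SE 0.38, adjusted p = 0.0395). Pou2af1, a coactivator of octamer-binding factors in B cells, had 26.8, 18.4 and 17.6 CPM in mutant and 12.1, 9.21 and 7.12 CPM in wild-type cells. Pou2af1 differed by like amounts in both batches, with log2 ratios of 1.12 in replicate 1 and 1.10 in the other replicates. The log2 ratio of Vstm2a was 1.30 in replicate 1, 2.11 in replicate 2 and 1.07 in replicate 3. Its wild-type replicate 2, at 2.57 CPM, was near the median receptor window of that library, 2.18 CPM. Paqr9, a membrane protein of the adiponectin and progestin receptor family, rested on the second batch, with 5.48, 31.8 and 27.7 CPM in mutant and 4.42, 4.81 and 5.11 CPM in wild-type cells.

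Tspo2, a membrane protein of red cell precursors, and Unc5cl lie head to head on chromosome 17, and their windows share reads. Tspo2 had 28.8, 52.6 and 58.4 CPM in mutant and 16.8, 16.7 and 17.3 CPM in wild-type cells (log2 fold change 1.29, SE 0.234, adjusted p = 8.69e-05), and Unc5cl followed it at 1.14. Wild-type libraries were nearly equal there, and the mutant libraries of replicates 2 and 3 were the high ones. Cd40, a costimulatory receptor of antigen-presenting cells (chromosome 2, 165055614 to 165071654), had 83.3, 70.9 and 66.8 CPM in mutant and 52.7, 24.5 and 27.0 CPM in wild-type cells (1.05, SE 0.181, adjusted p = 2.47e-05). Clec4a1, a C-type lectin of myeloid cells, had 53.7, 44.2 and 51.5 CPM in mutant and 37.3, 11.8 and 11.2 CPM in wild-type cells. Its empty-vector libraries, at 51.0, 51.9 and 55.4 CPM, lay with the mutant ones. Clstn3, an adhesion protein of the cadherin superfamily, had 31.2, 34.9 and 35.7 CPM in mutant and 19.5, 10.3 and 9.55 CPM in wild-type cells.

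The 10 windows lower in mutant cells included those of a granule protease, a chemokine receptor and a polycomb protein. Gzmb, the serine protease granzyme B of cytotoxic lymphocytes and mast cells (chromosome 14, 56258836 to 56262334), had 5.14, 8.96 and 10.5 CPM in mutant cells, against 18.9, 36.9 and 34.0 CPM in wild-type cells. The empty-vector libraries, at 5.49, 10.3 and 9.89 CPM, lay within the range of the mutant ones, and the wild-type libraries were the high ones. The log2 fold change was -1.95 (SE 0.358, edgeR adjusted p = 0.000106), with -1.78 in replicate 1 and -1.82 in replicates 2 and 3. Gzmb had the largest decrease of the 81 windows.

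Ackr3, an atypical receptor that takes up the chemokine Cxcl12 (chromosome 1, 90203980 to 90215724), had the smallest adjusted p among the named windows. It had 43.7, 27.7 and 31.4 CPM in mutant cells, against 87.3, 80.5 and 77.5 CPM in wild-type cells and 52.1, 69.0 and 67.7 CPM with the empty vector. The log2 fold change was -1.25 (SE 0.182, adjusted p = 1.06e-07), with -0.99 in replicate 1 and -1.41 in replicates 2 and 3. Mutant libraries lay below all libraries of both other constructs. Rbm47, an RNA-binding protein that takes part in C-to-U editing, had 28.9, 28.5 and 30.7 CPM in mutant and 50.5, 57 and 53.9 CPM in wild-type cells (-0.92, SE 0.189, adjusted p = 0.00159). Its log2 ratios in replicate 1 and in replicates 2 and 3 were -0.80 and -0.90, so that its difference was alike in both.

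Ly6a, the stem cell antigen Sca-1, differed more in replicate 1 than in replicates 2 and 3. It had 27.3, 45.1 and 48.2 CPM in mutant and 62.0, 66.5 and 64.2 CPM in wild-type cells (log2 fold change -0.93, SE 0.183, adjusted p = 0.000579), with -1.17 in replicate 1 and -0.48 in replicates 2 and 3. Creb3l1, a transcription factor held in the endoplasmic reticulum membrane, had 50.6, 40.1 and 46.6 CPM in mutant and 67.1, 144 and 134 CPM in wild-type cells. Cnga1, the cGMP-gated channel subunit of rods, had 11.5, 16 and 10.4 CPM in mutant and 18.4, 42.8 and 45.0 CPM in wild-type cells. Both were low in all mutant libraries, and the wild-type libraries of replicates 2 and 3 lay well above wild-type replicate 1.

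Abo, Pcgf5, Glyat and Hoatz differed mainly in replicates 2 and 3. Their log2 ratios there were -1.76, -1.79, -1.51 and -1.69, against -0.31, -0.21, -0.41 and -0.12 in replicate 1. Pcgf5, a polycomb subunit, had 25.5, 12.6 and 12.6 CPM in mutant and 29.5, 47.2 and 42.3 CPM in wild-type cells. Glyat, a glycine acyltransferase, had 33.5, 17.7 and 18.4 CPM in mutant and 44.6, 51.3 and 53.1 CPM in wild-type cells. For Abo, the glycosyltransferase of the ABO blood group, mutant replicate 1 had 18.3 CPM and wild-type replicate 1 had 22.8 CPM. For these windows the replicate 1 libraries lay close together.

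**Figure D4:**
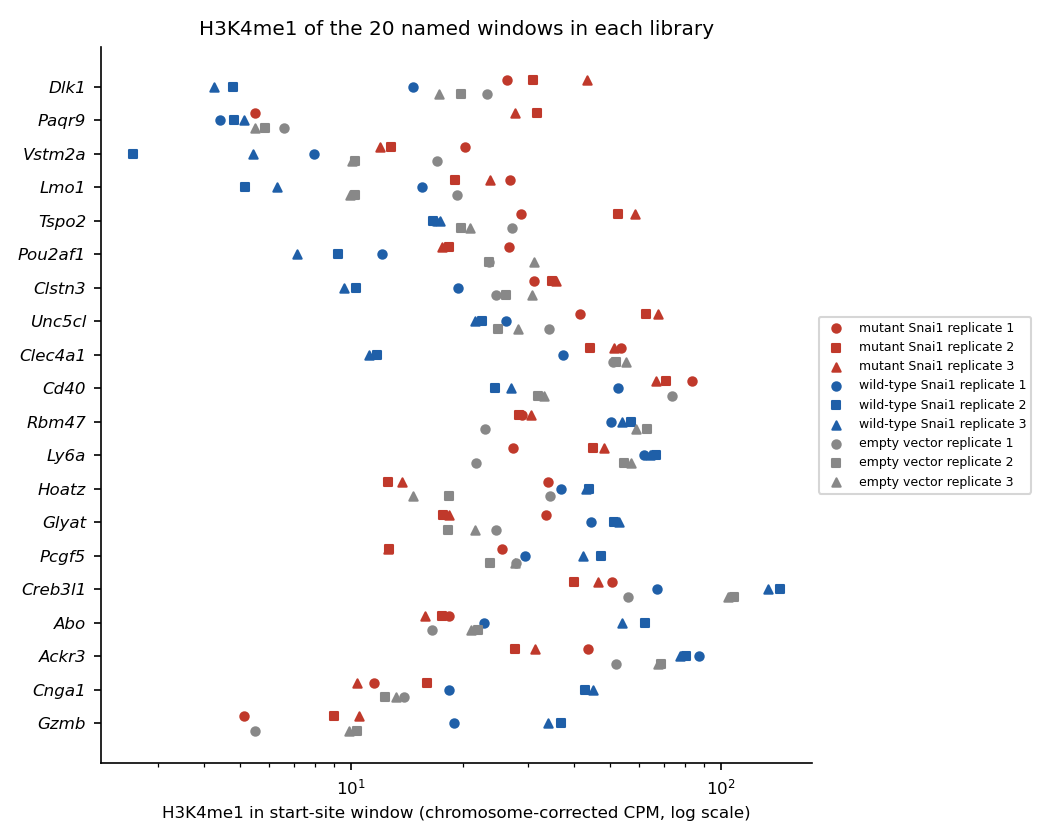
Chromosome-corrected H3K4me1 in CPM (x axis, log scale) of the 20 named windows (y axis), with 1 point per library. Mutant libraries are red and drawn above the wild-type ones in blue and the empty-vector ones in grey; circles, squares and triangles are replicates 1, 2 and 3. In each of the 20 windows the 3 mutant libraries lie on one side of the 3 wild-type libraries, as the rule for naming required.

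Windows that passed by 1 batch were also among the 81, and those given here were chosen after their values were seen. In 8 of the 81 the log2 ratio had opposite signs in replicate 1 and in replicates 2 and 3. Dact2, an inhibitor of Nodal signalling, was at -2.62 in replicate 1 and 0.05 in replicates 2 and 3. Epha2, an ephrin receptor, was at 0.66 in replicate 1 and -2.82 in replicates 2 and 3, and Bicd1, a dynein adaptor, at 0.42 and -2.50. Of the 81, 3 windows, Prdx4, Fancb and Mospd2, lie in the distal part of chromosome X, with log2 ratios of -0.16, -0.34 and -0.36 in replicate 1, against -1.35, -1.21 and -1.20 in the other replicates. Fancb and Mospd2 are neighbours whose windows share reads. The difference of all 3 in replicates 2 and 3 was in the direction of the median of all 109 windows there.

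When replicates were pooled, the 10 windows with the smallest p that met the same rule did not pass. These were Ackr3, Unc5cl, Tspo2, Ampd3, Frem3, Gzmb, Clstn3, Mospd2, Dlk1 and Nectin2, with adjusted p of 0.443 for the first pair and 0.8 for the others. Ackr3 was at -1.29 (SE 0.184) in this fit and -1.25 with the replicate block, where its adjusted p was 0.0362. Gzmb had an adjusted p of 0.0052 with the replicate block, and Ampd3, Frem3, Clstn3, Mospd2, Tspo2 and Dlk1 had 0.0429. Adjusted p from the block fit may be too small, since it counts libraries of the same construct and batch as independent. All 10 were among the 81 windows of the batch fit, where Ampd3, Frem3, Mospd2 and Nectin2 had adjusted p of 0.00539, 0.0115, 0.0115 and 0.0172. Nectin2, an adhesion molecule, had 0.0556 with the block. It had 59.9, 60.9 and 69.3 CPM in mutant and 36.0, 40.7 and 34.3 CPM in wild-type cells. Frem3, an extracellular matrix protein, had 30.4, 36.8 and 29.6 CPM in mutant and 52.3, 57.1 and 59.2 CPM in wild-type cells, a like difference in all 3 pairs. Ampd3, the AMP deaminase of red cells, had 95.4, 105 and 111 CPM in mutant and 63.5, 44.8 and 44.5 CPM in wild-type cells.

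The genes of Snai1 itself, of Lsd1 and of the SNAG-domain factors Gfi1 and Gfi1b did not pass in either fit. The Snai1 window had 125, 65.0 and 66.4 CPM in mutant and 80.8, 85.5 and 79.4 CPM in wild-type cells (log2 fold change 0.14, SE 0.203, edgeR adjusted p = 1.0), and the vector cDNA can add reads to it. Mutant replicate 1 was the highest and mutant replicates 2 and 3 the lowest of the 6 libraries. Kdm1a had 44.5, 49.1 and 47.4 CPM in mutant and 38.6, 49.7 and 50.7 CPM in wild-type cells, with a log2 fold change of 0.08 (SE 0.182) that became -0.03 with a local offset. Gfi1 had 55.3, 41.1 and 44.8 CPM in mutant and 77.8, 52.7 and 53.7 CPM in wild-type cells (-0.47, SE 0.182, adjusted p = 0.641). Each mutant library of Gfi1 lay below the wild-type library of its number, although the groups overlapped. Gfi1b, with 209, 118 and 124 CPM in mutant and 169, 163 and 151 CPM in wild-type cells, was at -0.02 (SE 0.284), a sign that turned in 5 alternatives.

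The gene lists were chosen for blood cell types, for other cell types and for the Snai1 and Lsd1 pathway. Of 393 list genes tested, 3 were higher and 3 lower in mutant cells, 1.53%, beside 0.313% of all windows. The lists and their members were chosen with earlier results of these data known, so the larger share supports nothing. Calls also varied with the level of the mark, with 0 in decile 1 of empty-vector H3K4me1 and 19 in decile 5. The median batch-fit log2 fold change of the 14 lists ran from -0.10 to 0.16, against 0.00 for all windows. Replicate 1 medians were above 0 in 13 of the 14 lists, and replicate 2 and replicate 3 medians were both below 0 in 9.

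Among blood lists, 2 of 31 erythroid and megakaryocytic genes passed, both higher in mutant cells, with a median of 0.16. They were Tspo2, described above, and Rhd, a red cell membrane protein of the Rh blood group, with 29.7, 65.6 and 68.5 CPM in mutant and 22.4, 32.8 and 29.8 CPM in wild-type cells (0.78, SE 0.196, adjusted p = 0.0278). The Rhd libraries overlapped between the groups, since mutant replicate 1 lay below wild-type replicate 2. Of 43 myeloid genes Cx3cr1, the fractalkine receptor, passed, with 70.6, 32.1 and 36.4 CPM in mutant and 38.2, 24.2 and 23.7 CPM in wild-type cells (0.72, SE 0.183, adjusted p = 0.0341). The median of the myeloid list was 0.00. Of 24 mast cell and basophil genes Gzmb passed, and of 30 stem and progenitor genes Ly6a, both lower, with list medians of 0.04 and -0.09. None of 32 lymphoid genes passed; the smallest p belonged to Cd4, the T-helper coreceptor, with 22, 32.2 and 29.6 CPM in mutant and 22.4, 11.8 and 10.3 CPM in wild-type cells (adjusted p = 0.921), and to Gata3, a T-cell transcription factor, at -0.36.

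Of 30 interferon and retroviral response genes Rsad2, the antiviral protein viperin, passed, although its batches went opposite ways. It had 105, 26.6 and 25.6 CPM in mutant and 83.1, 130 and 123 CPM in wild-type cells, log2 ratios of 0.34 in replicate 1 and -2.25 in replicates 2 and 3. Its adjusted p was 0.0299 at a log2 fold change of -0.87 (SE 0.219), and the list median was -0.02.

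Genes of the epithelial and mesenchymal programs, of which Snai1 represses the first in other tissues, did not pass (0 of 33 and 0 of 30), with medians of -0.10 and -0.02. Their windows were weakly marked, with median H3K4me1 of 19.8 and 19.6 CPM in mutant and 21.2 and 19.3 CPM in wild-type cells. Ocln, the tight junction protein occludin, had the smallest p of the epithelial list, with 31.6, 14.4 and 13.2 CPM in mutant and 28.9, 37.5 and 30.8 CPM in wild-type cells (-0.65, SE 0.256, adjusted p = 0.68). In the H3K4me2 batch fit Ocln was at -1.32 (edgeR adjusted p = 0.00982), although its batches went opposite ways. Its H3K4me2 log2 ratio was 0.23 in replicate 1 and -2.31 in replicates 2 and 3. Krt8, a keratin, was at 0.61 (adjusted p = 0.807). Among mesenchymal genes, Thy1, a surface glycoprotein, and Mmp14, a membrane-bound matrix metalloproteinase, were at 0.33 and 0.28.

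Lsd1 complex genes (0 of 29), H3K4 enzymes (0 of 26), cytokine receptor signalling genes (0 of 30), target genes of Lsd1 and Gfi1 enhancers (0 of 20), cell cycle genes (0 of 30) and housekeeping genes (0 of 27) had medians of 0.01, -0.06, -0.05, -0.08, -0.03 and -0.03. Rbbp7, a histone-binding subunit of deacetylase complexes, and Kdm5c, an H3K4 demethylase, lie in the distal part of chromosome X. Rbbp7 had 73.2, 29.2 and 31.8 CPM in mutant and 61.5, 70.9 and 63.8 CPM in wild-type cells (-0.46, SE 0.181, adjusted p = 0.641). Kdm5c was at -0.26 (SE 0.187), and its sign turned to 0.13 with a local offset. Lyz2, the lysozyme of myeloid cells, came closest among the Lsd1 and Gfi1 target genes, with 52.7, 38.8 and 37.8 CPM in mutant and 40.0, 20.4 and 16.7 CPM in wild-type cells (0.69, SE 0.191, adjusted p = 0.076). Kmt2e, a member of the MLL family, was at -0.27, Csf2rb2, a beta chain of the interleukin 3 receptor, at -0.47, Tnfrsf1b, a tumour necrosis factor receptor, at -0.27, and Cdkn1a and Cdkn1c, inhibitors of cyclin-dependent kinases, at -0.61 and -0.30. Of the housekeeping genes, Ywhaz was at -0.27.

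**Figure D5:**
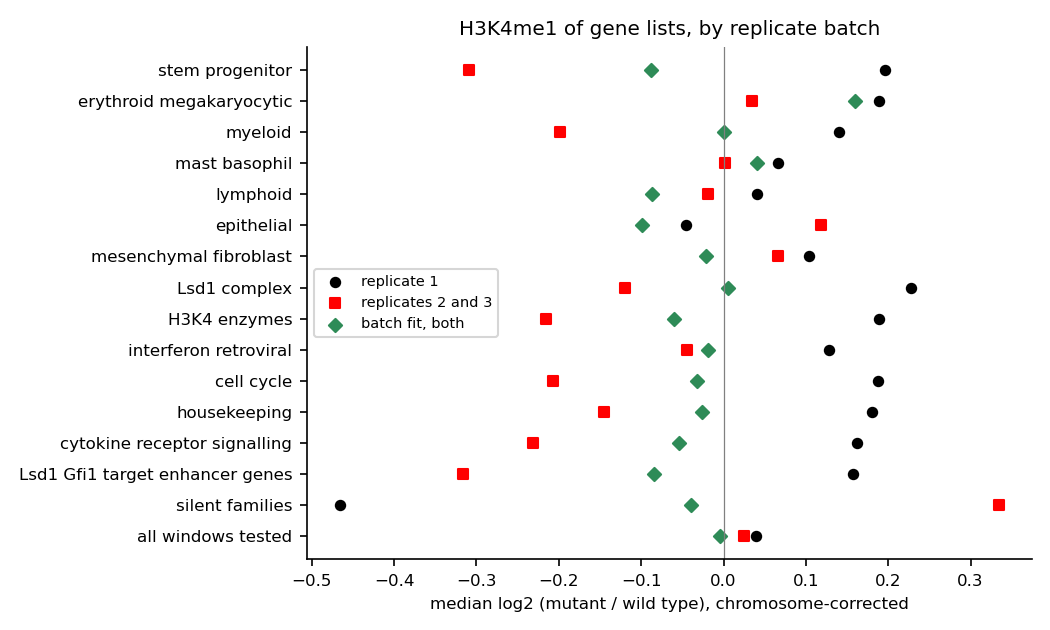
Median chromosome-corrected log2 ratio of mutant over wild type (x axis) of each gene list, of the silent receptor families and of all windows (y axis). Circles are replicate 1, squares replicates 2 and 3 and diamonds the batch fit of both; the stem and progenitor list lies at 0.20, -0.31 and -0.09, and the silent families at -0.47, 0.33 and -0.04.

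H3K4me2 was measured in the same constructs and was not used to choose the windows. There 155 of 26018 windows passed the test with a batch term (0.596%), 81 higher (0.311%) and 74 lower (0.284%) in mutant cells. This fit has the design of the H3K4me1 batch fit, and its p-values also rest on a spread taken as shared across all windows of a level. All 81 windows that passed in H3K4me1 had the same sign in H3K4me2, against 61.8% of the 25867 windows tested in both. Of these 81, 23 passed in H3K4me2 too, 28.4% of them and 14.8% of the 155. Whether the marks were taken from the same chromatin is not stated in the labels, and shared shifts of level and chromosome enter both. Across 17738 windows the log2 ratios of the 2 marks correlated at 0.58 in replicate 1 and 0.76 in replicates 2 and 3. A shared sign was therefore likely in advance for windows chosen for large differences. Among the named windows, Dlk1 was at 1.94 (adjusted p = 0.000213), Lmo1 at 1.41 (0.00738) and Cd40 at 1.28 (0.044) in H3K4me2. Ackr3 was at -1.30 (adjusted p = 0.000737), Glyat at -1.50 (7.84e-06) and Hoatz, a protein of sperm flagella, at -1.64 (0.000213). These 6 of the 20 named windows passed in H3K4me2, and the other 14 did not, with adjusted p from 0.11 for Creb3l1 to 1.0. Gzmb was among them, at -1.06 (adjusted p = 0.745).

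Snai1 peaks were set beside the H3K4me1 windows. The authors' deposited lists hold 12037 peaks in mutant, 2929 in wild-type and 137 in empty-vector cells, and they come from other libraries without a replicate check. Of 1740 windows of genes with a peak in mutant and wild type within 5 kb of an annotated end, 2 were higher and 7 lower in mutant H3K4me1, with a median of -0.02. Over all windows tested, 0.151% were higher and 0.162% lower. Genes with a peak in mutant cells alone gave 2 higher and 4 lower of 5293 and a median of -0.02, those with a wild-type peak alone 0 and 1 of 126, and those with no peak 30 and 23 of 17011, with a median of 0.01. Genes with a peak in both lists were more strongly marked, at a median of 66.8 CPM in empty-vector cells, against 11.5 CPM for genes without one. Calls varied with this level: 4 of 2589 windows passed in the decile with a median of 10.5 CPM. In the deciles at 58.7 and 75.6 CPM, 13 of 2590 and 7 of 2589 passed. With other rules for a peak in both lists the counts were 0 higher and 5 lower of 1012 within 1 kb of an end. For peaks with a -log10 q of at least 10 they were 2 and 1 of 709, and within 2.5 kb of the start site 0 and 1 of 979. The counts were small, and which direction had more of them depended on the rule. The medians for peaks in both lists within 5 kb of an end, in replicate 1 and in replicates 2 and 3, were 0.19 and -0.19, and 0.02 and -0.04 once the trend with level was removed.

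Of the 20 named windows, 3 had peaks in both lists. Ackr3 had one near its 3′ end, 11981 bases from the start site in the mutant list and 12109 in the wild-type list, with a fold enrichment of 5.11 in the authors' mutant list and 3.90 in their wild-type list. Cd40 had peaks with fold enrichments of 5.94 in the mutant and 8.55 in the wild-type list, and Creb3l1 had 6 in the mutant and 4 in the wild-type list in or near the gene. Cnga1 and Hoatz had peaks near a gene end in the mutant list alone, and the other 15 had none near an end. Of these, Rbm47 had a peak inside the gene in the mutant list alone, 81964 bases from the start site, with a fold enrichment of 8.46. Cd40 was higher and Ackr3 and Creb3l1 were lower in mutant H3K4me1, so that the windows with peaks in both lists went in both directions.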

How the data were processed

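H3K4me1 ChIP-seq reads in windows around transcription start sites were deposited by the authors as raw counts for each Entrez gene ID. The submitters' processing notes name Subread and featureCounts (versions not given in the sources used here) and the builds GRCm38 and mm10, which are 1 assembly. The table's name gives windows of 5 kb around the start site; it holds no window coordinates, and windows of neighbouring genes can share reads. The authors' deposited Snai1 peak lists hold per peak a fold enrichment and a -log10 q-value, from MACS2 per the submitters' processing notes, with 1 list per construct over 4 technical replicates.

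Of 27095 IDs, 25204 (93.0%) matched symbols of the RefSeq GRCm38.p6 gene table and 18435 an annotated start site. Rows equal to an earlier row (31) and rows without reads (20) were left out, which left 27044 windows. Counts were tested with edgeR 4.0.16 in R 4.3.3 (quasi-likelihood F-test, TMM, filterByExpr, two-sided, Benjamini-Hochberg adjustment over all windows tested, threshold 0.05), with empty-vector libraries in the fit so that the 3 constructs share the spread. The pooled fit had 8 samples and no block. The batch fit had 6 sums, replicate 1 and the summed replicates 2 and 3 of each construct, with a batch term; the same fit was run on H3K4me2. Both carried an offset per chromosome and library, the TMM factor within the chromosome over the genome-wide one, for chromosomes with at least 50 windows. Fold changes are mutant over wild type. Printed CPM are TMM-scaled and chromosome-corrected, and log2 ratios of single replicates add 0.5 CPM. Precision is set by the counts and by the number of libraries. Promoters and peaks were handled with Python 3.11.15 (pandas 2.3.3) and GenomicRanges 1.54.1.

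Same-numbered mutant and wild-type libraries deviated together from their group means (correlations across windows 0.35, 0.20 and 0.35), over the fixed limit of 0.1 for pairing by number. Neither the pooled nor the batch fit paired by number. Replicate number entered only as the block of an alternative fit, added after seeing the data. Mutant replicate 2 correlated more with wild-type replicate 3 (0.34) than with its own number, and mutant replicate 3 correlated with wild-type replicate 2 at 0.23, while replicate 1 correlated negatively with both other numbers. Deviations from a group mean cancel within a construct, so the negative values follow in part from the positive ones. The correlations thus separate replicate 1 from replicates 2 and 3 and do not separate these from each other, and the labels name no batch. Windows were named where they passed, had a symbol of a known gene, did not overlap between the 3 mutant and 3 wild-type libraries and reached 2 times the median of the silent receptor families (1475 windows) in the higher group, up to 10 per direction by fold change; where fewer passed, the 10 with the smallest p are named as not passing. Snai1, Kdm1a, Gfi1 and Gfi1b were named in any case, and in each list the members that passed or the 2 with the smallest p, of which 1 is not reported here. The rule, the gene lists and the members were chosen with earlier results of these data known. Alternatives were the chromosome offset, scaling, DESeq2 1.42.0, the filter, the samples in the fit and leaving out each replicate; the removal of the level trend, the block on 9 separate libraries, the distance of peaks from the start site and leaving out distal chromosome X were added after seeing the data.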

Additional observations from a re-analysis of the deposited data

Results flagged for a closer look

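Medians of the log2 ratio of mutant over wild type that went one way in replicate 1 and the other way in both replicates 2 and 3 are given here; these differences between batches were not tested, and 1 library per construct and replicate stands behind each. Whole chromosomes are given only where a median reached 0.2 in size, before correction. The replicate 1 and replicates 2 and 3 medians were 0.18 and -0.20 on chromosome 11 and 0.0905 and -0.21 on chromosome 13. They were 0.19 and -0.34 on chromosome 17, and 0.12 and -0.23 on chromosome X. Other chromosomes had opposite signs too, such as chromosome 7 at 0.18 and -0.18. The median over chromosomes was itself 0.15 and -0.15. Measured from it, chromosome 13 departed by -0.06 and -0.06 and chromosome X by -0.03 and -0.08, the same way in both batches. In the distal part of chromosome X the uncorrected medians were 0.0663 and -0.996.

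Among gene lists, the 2 medians were 0.20 and -0.31 for stem and progenitor genes, 0.14 and -0.20 for myeloid genes, 0.23 and -0.12 for Lsd1 complex genes and 0.19 and -0.22 for H3K4 enzymes. They were 0.13 and -0.04 for interferon and retroviral response genes, 0.19 and -0.21 for cell cycle genes, 0.18 and -0.14 for housekeeping genes, 0.16 and -0.23 for cytokine receptor signalling genes and 0.16 and -0.32 for target genes of Lsd1 and Gfi1 enhancers. The silent receptor families went the other way, with -0.47 in replicate 1 and 0.33 in replicates 2 and 3. By level of the mark, the lowest decile was at -0.43 and 0.31 and the highest at 0.24 and -0.26. The lists of strongly marked genes thus followed the top deciles in each batch, and the part of the level trend in their medians was not tested.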

How the results depend on the processing

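The pooled counts were 0 under the alternatives of scaling, offset and filter, with the edgeR test. They were 21 higher and 15 lower with DESeq2, and 33 higher and 15 lower with the replicate block on 9 separate libraries. The block fit counts libraries of the same construct and batch as independent, so its counts may be too high. Leaving out 1 replicate gave 0 to 103 higher and 0 to 110 lower. In place of the 39 higher and 42 lower calls of the batch fit there were 4 and 6 with no chromosome offset, 2 and 1 with column totals, 9 and 2 with silent-family scaling (median over all windows 0.0939), 1 and 1 with DESeq2, and 14 and 21 with the mutant and wild-type libraries alone. Of the calls with silent-family scaling 4 were among the 81; in the others named here all were. Counts were 0 and 0 with a local offset, with a mean of at least 50 reads in each construct, and with the level trend and chromosome offset. Leaving out 1 replicate gave 0 to 25 higher and 0 to 32 lower. No filter gave 44 and 42, and leaving out distal chromosome X 40 and 40. The prior degrees of freedom of edgeR, which weigh the spread shared across windows, were 5.78 to 16.5 in the batch fits with 0 calls and infinite in the reported one, and the cause of the loss was not tested. All of the 81 windows that could be tested kept their sign in each of these fits, which use the libraries that the 81 were chosen from. Signs of weak values turned: Kdm1a was at -0.0291 and Kdm5c at 0.13 with a local offset, and Gfi1b at 0.0330 with no chromosome offset, 0.0977 with silent-family scaling and 0.0135 with DESeq2; leaving out 1 replicate put Gfi1b between -0.0502 and 0.00585, above 0 without mutant replicate 2 (0.00311) or wild-type replicate 2. The causes were not tested. With 1 library per construct in replicate 1, a difference there has no replicate check.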

Other observations

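Smaller stretches of chromosomes departed from their own chromosome in replicates 2 and 3 and are given as values, chosen after they were seen. Of 412 bins of 5 Mb, 66 windows at 55 to 60 Mb of chromosome 11 were 0.42 above their chromosome in H3K4me1 and 0.37 in H3K4me2, and 87 windows at 65 to 70 Mb were at -0.32 and -0.37. Both bins were within 0.06 of 0 in replicate 1. On chromosome 6, 63 windows at 40 to 45 Mb were at -0.53 in H3K4me1 and -0.06 in H3K4me2.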
